A study of Mus musculus with 11 samples.

Results

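The genes described here encode 10 receptors through which phagocytes bind or take up dead cells. They comprise the scavenger receptors Cd36, Msr1 and Lrp1, the TIM family receptors Havcr2 and Timd4, the TAM receptor kinases Axl, Mertk and Tyro3, and the integrin chains Itgav and Itgb5. The list was set by gene name, but with earlier results of these data known. All 10 were measured among the 19938 genes that the arrays represent by a probe set with a single gene symbol. Each of the 10 has exactly 1 such probe set, so no choice among probe sets enters their values. The 11 arrays measured RNA of classical dendritic cells (cDCs) sorted from the spleens of C57BL/6 mice in 3 groups. CD24+ cDCs (3 arrays) and control CD172a+ cDCs (4 arrays) came from mice with the genotype Zeb2(fl/fl), which carry floxed Zeb2 and no Cre. The third group (4 arrays) was CD172a+ cDCs of Zeb2(fl/fl);CD11c-Cre(tg) mice, in which the CD11c promoter drives Cre, and which are labelled Zeb2-deficient. Floxed Zeb2 is thus shared by all groups, only the third carries the transgene, so the transgene and a loss of Zeb2 cannot be told apart. The mice's ages, and whether replicates are separate animals, are not given in the sources used here. The p-values therefore measure the spread between arrays, which may be technical.

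A dying cell exposes phosphatidylserine, a lipid that living cells keep on the inner leaf of the plasma membrane. Phagocytes read it directly through TIM receptors, or through soluble bridging proteins: Gas6 and protein S for the TAM kinases, and Mfge8 for alpha-v integrins. Scavenger receptors add a route for oxidised lipids and for proteins on the dying cell. In spleen, resident macrophages clear most dying cells, while the CD24+ subset of cDCs, also called cDC1, is known for taking up dead cells and presenting their antigens to CD8+ T cells. CD172a+ cDCs correspond to the cDC2 subset.

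Values are log2 expression values normalised between arrays, so a difference of 1 is a doubling. A gene passed the test when its adjusted p in limma, a linear model with moderated variances, was below 0.05 after Benjamini-Hochberg adjustment over all 19938 genes. The labelled subsets matched their defining markers: 8 of 9 cDC1 markers were higher and 6 of 6 cDC2 markers lower in control CD24+ than in control CD172a+ cDCs. Of all genes, 3.25% passed as higher and 3.16% as lower. Zeb2 read from 8.32 to 9.24 in the arrays labelled Zeb2-deficient and from 8.23 to 8.61 in control CD172a+ cDCs, so it was not lower in the group meant to lack it. Whether that probe set reads the deleted exons is not given, so the value checks little about the deletion. Within groups, the main source of variation split the arrays into a first set and a second set, read from the first principal component of the deviations from the group means (62.1% of their variance). The first set held replicate 1 of CD24+ cDCs and replicates 1 and 2 of both CD172a+ groups, and the second held the remaining 6 arrays. No label names such sets, and they were read from these same values, members included. Their differences are therefore given as descriptions. So are all counts and adjusted p-values from fits within a set or with array set as a block. Such a split lowers the spread within groups by itself, so passing there is not a test result.

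The 250 bases before the transcription start are shown for 4 members: Cd36 and Lrp1, which differ between the subsets in opposite directions, and Timd4 and Itgb5, the members that hold a searched motif. They come from the RefSeq annotation of GRCm38.p6, 5′ to 3′ on the strand of the gene, and 9 of the 10 members had an entry in that table. Capitals mark a motif match.
Cd36, chr5:17835897-17836146, minus strand: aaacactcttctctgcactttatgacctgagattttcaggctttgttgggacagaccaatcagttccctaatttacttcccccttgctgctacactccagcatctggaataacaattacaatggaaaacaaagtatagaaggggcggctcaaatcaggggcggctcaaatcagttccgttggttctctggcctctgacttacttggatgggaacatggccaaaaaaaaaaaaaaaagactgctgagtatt
Lrp1, chr10:127621149-127621398, minus strand: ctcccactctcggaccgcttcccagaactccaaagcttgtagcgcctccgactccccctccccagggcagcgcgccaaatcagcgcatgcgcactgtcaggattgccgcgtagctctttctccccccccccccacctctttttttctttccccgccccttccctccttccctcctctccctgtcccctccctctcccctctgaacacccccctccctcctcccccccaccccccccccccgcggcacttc
Timd4, chr11:46810549-46810798, plus strand: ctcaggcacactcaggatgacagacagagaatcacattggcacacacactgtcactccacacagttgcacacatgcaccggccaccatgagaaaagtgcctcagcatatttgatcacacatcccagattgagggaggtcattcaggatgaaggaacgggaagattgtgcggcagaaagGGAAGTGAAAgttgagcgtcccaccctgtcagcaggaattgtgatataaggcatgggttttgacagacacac
Itgb5, chr16:33829415-33829664, plus strand: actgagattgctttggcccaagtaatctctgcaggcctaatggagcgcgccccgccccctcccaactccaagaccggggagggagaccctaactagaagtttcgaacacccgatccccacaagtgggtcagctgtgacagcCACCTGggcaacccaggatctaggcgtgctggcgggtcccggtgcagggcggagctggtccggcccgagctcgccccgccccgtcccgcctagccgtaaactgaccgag
The motifs searched on both strands, in windows from 250 bases before to 50 after the start, were CACCTG, an E-box that Zeb factors bind, and the ETS-IRF composite element. CACCTG occurred in 20.2% of 32851 promoters and in 1 of the 9 members' promoters, that of Itgb5, where it spans bases -109 to -104 relative to the transcription start. The ETS-IRF element occurred in 2.72% of promoters and in 1 member's, that of Timd4, at bases -72 to -63. Neither motif was matched in the Cd36 or Lrp1 window, which says only that these letters are not in it. A match is a description of the sequence and not a measured site. The upstream G and C content was 43.2% for Cd36 and 67.2% for Lrp1.

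Cd36, a class B scavenger receptor that binds oxidised lipids and, together with alpha-v integrin, dying cells, was the member with the largest difference between subsets. It read 10.10, 10.40 and 10.08 in the 3 arrays of control CD24+ cDCs. In the control CD172a+ arrays it read 4.81, 4.85, 5.65 and 5.62, and in the CD172a+ arrays labelled Zeb2-deficient 5.12, 4.67, 5.52 and 5.48. All 3 CD24+ arrays thus lay far above all 8 CD172a+ arrays, and the CD172a+ groups overlapped. The means were 10.19 ± 0.18 (SD, n = 3) in CD24+ and 5.23 ± 0.46 (SD, n = 4) in control CD172a+ cDCs, a log2 difference of 4.96 (SE 0.261, limma adjusted p = 8.24e-07). The difference was larger than that of 99.95% of genes. The fold of 31.1 rests on a CD172a+ mean below the median of all genes (5.52), where normalised values shrink, so it is not an exact ratio. CD172a+ cDCs labelled Zeb2-deficient, at 5.20 ± 0.40 (SD, n = 4), differed from CD24+ cDCs by -5.00 (SE 0.261, limma adjusted p = 8.28e-07). The difference between the control subsets was 5.26 within the first array set and 4.61 within the second.

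Lrp1 encodes a large endocytic receptor of the LDL receptor family that binds calreticulin on dying cells and many protease complexes. It read 5.62, 5.52 and 5.34 in CD24+ cDCs against 6.36, 6.31, 6.87 and 6.84 in control CD172a+ cDCs. The arrays labelled Zeb2-deficient read 6.31, 6.19, 6.64 and 6.67, within or just under the control CD172a+ range and all above every CD24+ array. Lrp1 fell by 1.10 on the log2 scale in control CD24+ relative to control CD172a+ cDCs (SE 0.177, limma adjusted p = 0.0027), a 2.15-fold difference. It was 1.94-fold higher in CD172a+ cDCs labelled Zeb2-deficient than in CD24+ cDCs (log2 0.96, SE 0.177, limma adjusted p = 0.00646).

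Msr1, the class A scavenger receptor of macrophages that binds modified lipoproteins, was also lower in CD24+ cDCs. It read 3.89, 4.03 and 3.96 there, and 4.73, 4.44, 5.20 and 4.68 in control CD172a+ cDCs. The groups did not overlap, but every one of the 11 values lay below its array's median over all genes, in the range where differences shrink. The difference was -0.80 (SE 0.179, limma adjusted p = 0.0214). The call was lost without CD24+ replicate 1, 2 or 3 (adjusted p = 0.0731, 0.0616 and 0.0739), with differences of -0.77, -0.84 and -0.80. In CD172a+ cDCs labelled Zeb2-deficient Msr1 read 4.18, 4.40, 4.79 and 4.55, again with no overlap with CD24+ cDCs, but the difference of 0.52 did not pass (limma adjusted p = 0.129, or 0.0114 when array set was a block).

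The TIM receptors Havcr2 and Timd4 did not pass in any comparison fitted with group alone. Havcr2, which encodes TIM-3, a phosphatidylserine receptor and immune checkpoint of T cells and dendritic cells, had a narrow range over all arrays, from 10.18 to 10.94. It read 10.94, 10.69 and 10.51 in CD24+ cDCs, 10.68, 10.51, 10.21 and 10.18 in control CD172a+ cDCs, and 10.63, 10.61, 10.22 and 10.63 in CD172a+ cDCs labelled Zeb2-deficient. The CD24+ arrays overlapped both CD172a+ groups at their lower end. The difference of 0.32 between the control subsets had a 95% interval of -0.03 to 0.67 (limma adjusted p = 0.383). With the array set as a block it was 0.37 (limma adjusted p = 0.0433, given as a description).

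Timd4, which encodes TIM-4, a tethering receptor for phosphatidylserine best known from resident macrophages, varied more between arrays of a group than between groups. In CD24+ cDCs replicate 1 read 5.72 and replicates 2 and 3 read 8.07 and 7.56. Control CD172a+ cDCs read 6.28, 5.76, 7.22 and 7.11, and those labelled Zeb2-deficient 6.24, 6.54, 7.05 and 7.65. In every group the second array set lay above the first, by 2.10 in CD24+, 1.14 in control CD172a+ and 0.96 in labelled Zeb2-deficient cDCs. Its spread within groups (SD 0.84) was wider than that of 99.0% of genes. The difference between the control subsets, 0.52, had a 95% interval of -0.70 to 1.75 and turned from -0.30 within the first set to 0.65 within the second.

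The TAM kinases did not pass in any comparison fitted with group alone. Mertk encodes the kinase through which macrophages engulf dying cells. It read 3.78, 3.996 and 4.06 in CD24+ cDCs. Control CD172a+ cDCs read 3.42 and 3.70 in replicates 1 and 2 but 5.30 and 5.41 in replicates 3 and 4. Those labelled Zeb2-deficient read 3.88, 4.19, 5.45 and 4.89 in the same order. The CD24+ values therefore lay among the first-set CD172a+ values and below all of the second-set ones. Every Mertk value, in all groups, lay below its array's median over all genes, in the range where differences shrink. Over all arrays Mertk differed between control CD24+ and CD172a+ cDCs by -0.51 (95% interval -1.64 to 0.62, limma adjusted p = 0.779). Within the sets the difference was 0.22 in the first, which has a single CD24+ array, and -1.32 in the second. There the limma adjusted p was 0.00912, given as a description.

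Axl, a second TAM kinase, was likewise higher on the second-set than on the first-set CD172a+ arrays. It read 5.10, 5.10 and 4.90 in CD24+ cDCs, 4.75, 4.85, 6.12 and 5.91 in control CD172a+ cDCs, and 4.95, 4.90, 5.74 and 5.74 in those labelled Zeb2-deficient. The subset difference was -0.37 over all arrays (limma adjusted p = 0.752) and 0.30 within the first set. Within the second set it was -1.02 (limma adjusted p = 0.00596, given as a description). Tyro3, the third TAM kinase, read between 4.65 and 5.02 on all 11 arrays, below the array median each time. Its subset difference was 0.00 with a 95% interval of -0.23 to 0.23.

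The integrin chains Itgav and Itgb5 pair as alpha-v beta-5, which binds dying cells through Mfge8. Itgav, the shared alpha-v chain, read 8.17, 7.74 and 7.69 in CD24+ cDCs, 7.86, 7.78, 7.78 and 7.42 in control CD172a+ cDCs, and 8.02, 7.78, 7.66 and 7.70 in those labelled Zeb2-deficient. All groups overlapped, and the subset difference was 0.16 (95% interval -0.17 to 0.49). Itgb5, the beta-5 chain, read 5.001, 4.82 and 5.004 in CD24+ cDCs. It read 4.46, 4.92, 5.43 and 5.66 in control CD172a+ cDCs, and 4.85, 4.81, 5.41 and 5.48 in those labelled Zeb2-deficient, with the second-set arrays again on top. The difference between the control subsets was -0.18 over all arrays (limma adjusted p = 0.88), 0.31 within the first set and -0.63 within the second (adjusted p = 0.0337).

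**Figure D1:**
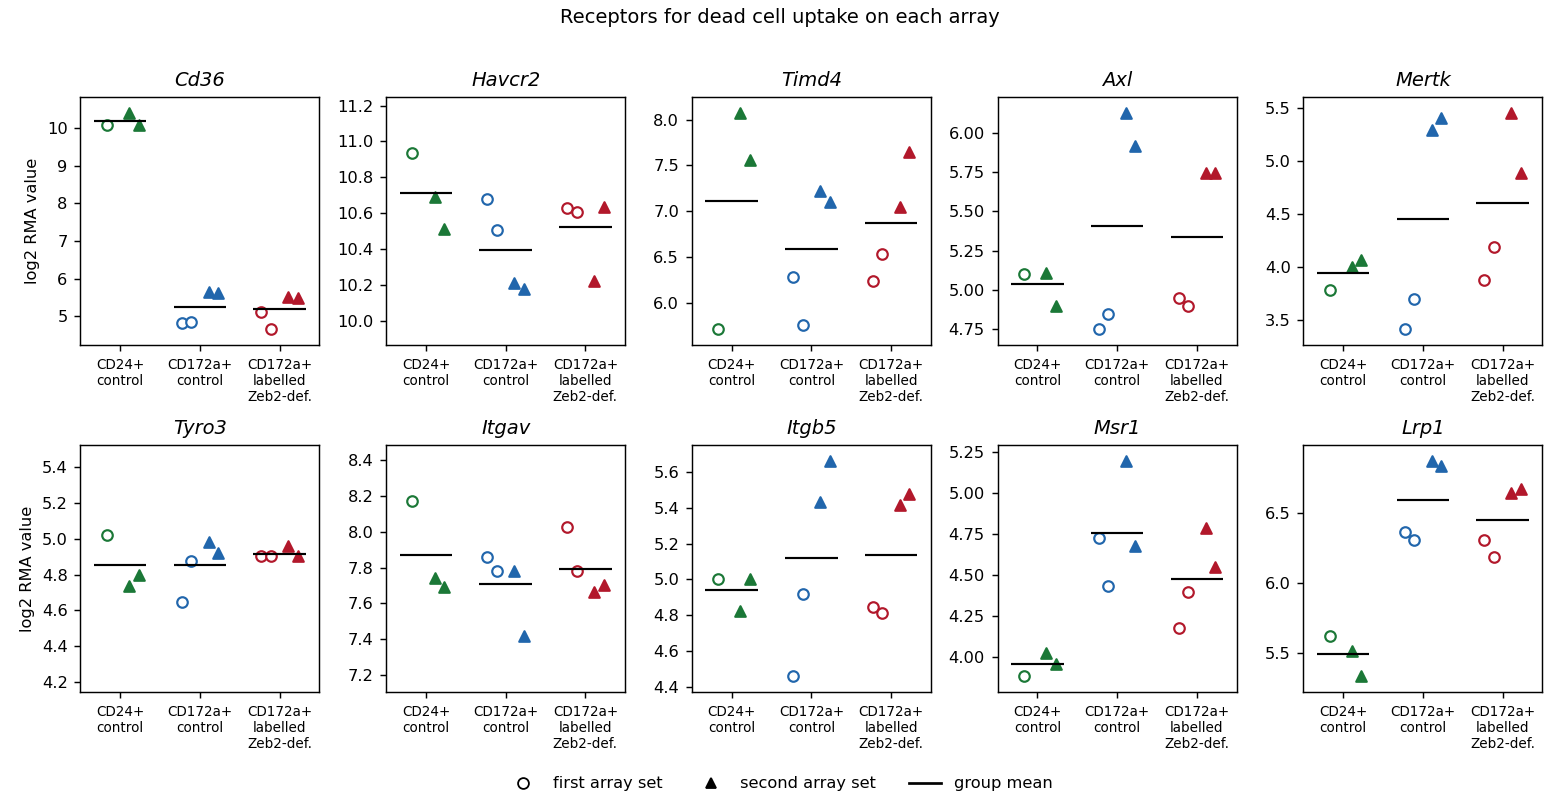
Log2 RMA value of each of the 10 receptor genes on all 11 arrays (1 point per array, vertical axes differ between panels), by group, with open circles for the first and filled triangles for the second array set and a bar at the group mean. Cd36 separates CD24+ from CD172a+ cDCs in both sets, while Mertk, Axl and Itgb5 are higher on the second-set arrays of both CD172a+ groups, with a shift of 0.25 or less in CD24+ cDCs.

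In total, 3 of the 10 members passed between the control subsets, 1 higher (Cd36) and 2 lower (Lrp1 and Msr1) in CD24+ cDCs. Of all genes 6.41% passed, 3.25% higher and 3.16% lower. The same 3 were the members whose groups did not overlap, against 14.6% of all genes. The median difference of the members was -0.09, and that of all genes -0.02. The replicate number as a block left the same count of 3 (9.24% of all genes), and array set as a block gave 4, adding Havcr2 (15.4%). The replicate block matches CD24+ replicate 2, of the second array set, with CD172a+ replicate 2, of the first. No pairing by replicate number was established, so it supplies little further check. Within the second array set 6 members passed (8.79% of all genes), Cd36 higher and Lrp1, Msr1, Mertk, Axl and Itgb5 lower in CD24+ cDCs. Within the first set 2 passed, Cd36 and Lrp1 (7.63% of all genes), with 1 CD24+ array assumed to vary like the other groups. The counts that use the array sets are descriptions, since the sets were read from these values. Whether the subset difference of Mertk, Axl, Itgb5 or Timd4 itself depended on the array set was not tested.

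Among CD172a+ cDCs, the labelled Zeb2-deficient group was compared with the control group. The groups also differ in the transgene. Zeb2 itself did not read lower in the labelled group, but whether its probe set reads the deleted exons is not given. The comparison therefore cannot say which genes depend on Zeb2. Of the 10 members 0 passed, where 0.0502% of all genes did (0.0401% higher, 0.01% lower). A block for the replicate number gave 0 as well (0.0552% of all genes). Without adjustment, 0 members had a limma p below 0.05 (smallest p = 0.123, for Msr1), against 3.88% of genes, and 0 by exact two-sided permutation of the arrays (smallest p = 0.257, where 0.0286 is the smallest possible). Differences ran from -0.28 for Msr1 (95% interval -0.64 to 0.09) to 0.28 for Timd4 (-0.86 to 1.41). Cd36 differed by -0.04 (-0.57 to 0.50), Lrp1 by -0.14 (-0.50 to 0.22), Havcr2 by 0.13 (-0.20 to 0.46) and Tyro3 by 0.06 (-0.15 to 0.27). For Mertk the interval was -0.90 to 1.19 and for Axl -0.79 to 0.64, so the interval for Mertk reaches about a doubling in either direction. All 10 members overlapped between these groups (2.1% of all genes did not), and 6 differences were positive and 4 negative.

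Set against control CD24+ cDCs, the CD172a+ cDCs labelled Zeb2-deficient had 2 members past the threshold, Lrp1 higher and Cd36 lower, where 7.17% of all genes passed (3.25% higher, 3.92% lower). With the replicate number as a block there were again 2 (10.3% of all genes). The groups did not overlap for Cd36, Lrp1 and Msr1, nor for 17.9% of all genes. This comparison shares its CD24+ arrays with the one between the control subsets, so its values are given only side by side. Mertk differed by 0.66 (95% interval -0.48 to 1.79) over all arrays. With the array set as a block, 4 members passed, adding Mertk (0.85, limma adjusted p = 0.0371) and Msr1, where 18.3% of all genes did. Within the second array set 4 passed (9.71% of all genes). The TIM receptors differed by -0.19 (Havcr2) and -0.25 (Timd4), and neither passed.

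**Figure D2:**
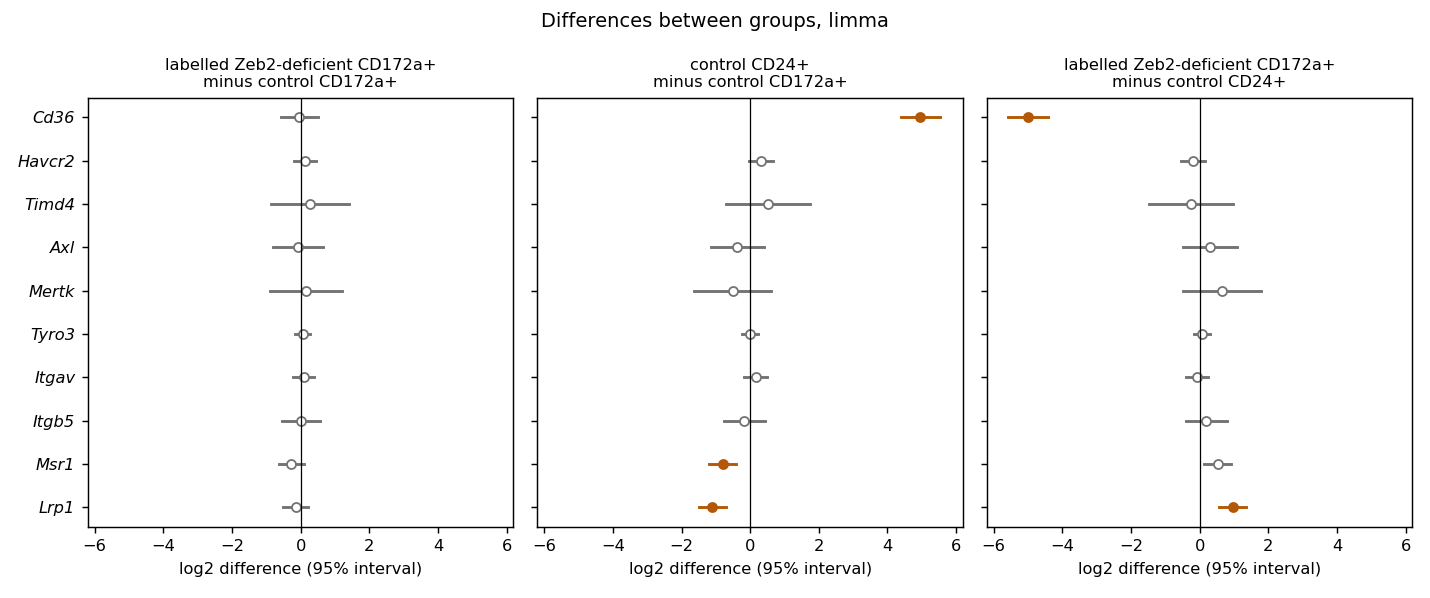
Log2 difference (point) with its 95% interval (line) of each receptor gene in the 3 comparisons, from the limma fit over all 11 arrays, filled where the adjusted p was below 0.05. The differences between the CD172a+ groups lie between -0.28 and 0.28, and Cd36 lies near 5 on either side in the comparisons with CD24+ cDCs.

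Several members varied more between the array sets than within them. For 6 of the 10 (Cd36, Timd4, Axl, Mertk, Itgb5 and Lrp1), all 4 CD172a+ arrays of the second set lay above all 4 of the first, against 12.1% of all genes, and no member lay below, against 14.1%. For Mertk, which stayed below the array median on every array, the second set exceeded the first by 1.79 in control CD172a+ cDCs. The excess was 1.14 in labelled Zeb2-deficient CD172a+ cDCs, but 0.25 in CD24+ cDCs. For Axl these shifts were 1.22, 0.82 and -0.10, for Itgb5 0.86, 0.62 and -0.09, for Cd36 0.80, 0.61 and 0.14, and for Lrp1 0.52, 0.41 and -0.20. Timd4 was the member of the 6 whose shift was larger in CD24+ cDCs. The spread within groups was wider than that of 98.6% of genes for Mertk, 94.4% for Axl, 88.5% for Itgb5 and 16.5% for Tyro3. Once arrays were compared within group and set, the SD of Mertk went from 0.78 to 0.23 and that of Axl from 0.53 to 0.10.

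Markers of splenic macrophages, cells that carry several of these receptors, moved with the array sets too. Of 15 measured markers, 11 lay higher on all second-set than on all first-set CD172a+ arrays, against 12.1% of all genes. Of the rest, 0 lay lower on all and 4 overlapped. Among those 4, C1qa and Marco averaged higher in the second set. Adgre1 averaged lower (by -0.42 in control and -0.43 in labelled Zeb2-deficient CD172a+ cDCs), as did Cd209b (-0.41 and -0.31). Summed over the list, their log2 values were 81.2 to 83.5 in the first-set and 96.4 to 97.3 in the second-set control CD172a+ arrays. The sums were 80.8 to 81.1 and 94.4 to 98.2 in those labelled Zeb2-deficient, and 74.2 and 81.6 to 81.7 in CD24+ cDCs. Adgre1 averaged 9.03 in control CD172a+ and 4.46 in CD24+ cDCs, so the sums differ between subsets partly through this gene. Some markers shifted in CD172a+ but hardly in CD24+ cDCs, as Mertk and Axl did, such as the iron exporter Slc40a1 (1.17 in control CD172a+, 1.39 in labelled Zeb2-deficient and 0.08 in CD24+ cDCs) and the haemoglobin receptor Cd163 (0.58, 0.55 and 0.03). Spic, the transcription factor of red pulp macrophages, shifted in all groups and more in CD24+ cDCs (1.01, 1.90 and 3.07), as Timd4 did. Cd163, Cd5l, Marco, Siglec1 and Fcgr1 stayed below the array median on every array. Immediate-early genes such as Fos, known to be induced during tissue digestion, were lower on all second-set CD172a+ arrays for 7 of 8, against 14.1% of all genes. So were 5 of 6 cDC2 markers, the defining genes of the sorted CD172a+ cells, with median shifts of -0.73 in control, -0.53 in labelled Zeb2-deficient and 0.22 in CD24+ cDCs. The part of any of these in the members' shift was not tested, and in bulk samples a change in the share of a cell type and in RNA per cell cannot be told apart. Between the CD172a+ groups 0 of the 15 macrophage markers passed in limma (median difference -0.04), where 0.0502% of all genes did. In control CD24+ relative to control CD172a+ cDCs 2 were lower, Adgre1 and Cd209b (median -0.31), where 3.16% of all genes were. Of the other lists, 1 of 8 monocyte markers, Lyz2, was lower in CD172a+ cDCs labelled Zeb2-deficient than in control (0.01% of all genes). Of 7 pDC markers 1, Cox6a2, was higher (0.0401% of all genes). In the same comparison 0 of 5 B cell, 0 of 5 pan-cDC and 0 of 3 erythroid and platelet genes passed. The CD172a+ groups nevertheless did not overlap for 1 B cell and 3 monocyte markers, against 2.1% of all genes. The B cell marker Ms4a1 was higher by 2.019 in the labelled group (limma adjusted p = 0.135). Besides Lyz2, the monocyte markers Ccr2 (-1.225, adjusted p = 0.637) and Csf1r (-0.942, adjusted p = 0.129) were lower. The differences were negative for 3 of 5 B cell and positive for 3 of 8 monocyte markers.

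**Figure D3:**
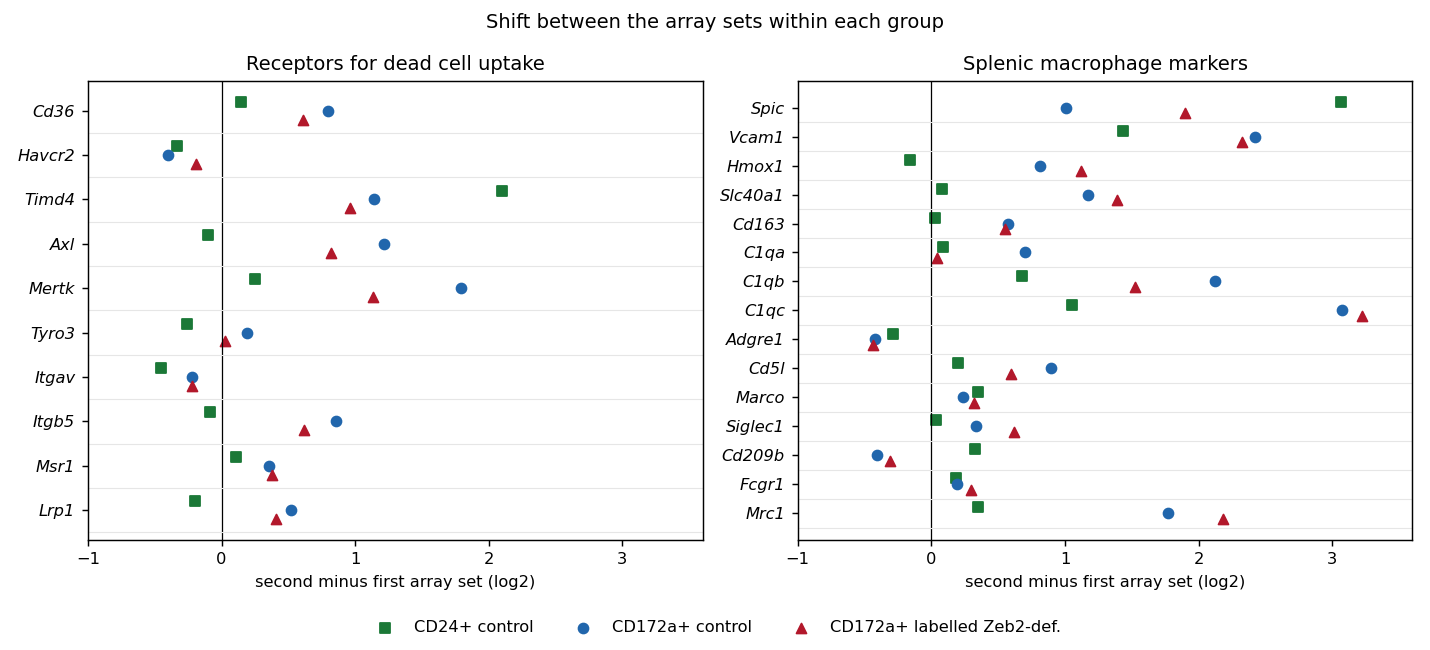
Mean of the second-set arrays minus mean of the first-set arrays (log2) within each group, for the 10 receptor genes (left) and 15 splenic macrophage markers (right), with the CD24+ value resting on 1 first-set array. Mertk reads 1.79, 1.14 and 0.25 in control CD172a+, labelled Zeb2-deficient CD172a+ and CD24+ cDCs, whereas Timd4 reads 1.14, 0.96 and 2.10.

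Havcr2 and Timd4 lie in the TIM gene cluster of chromosome 11, with Timd2 and Havcr1, further TIM receptor genes, next to Timd4 in the RefSeq gene table. Timd2 averaged 3.48 in both control subsets, and Havcr1 averaged 4.395 in CD24+ and 4.22 in control CD172a+ cDCs, all below the median of all genes. Mertk, Tyro3 and Itgav all lie on chromosome 2 but are not direct neighbours there. The protein-coding genes measured beside Cd36, Sema3c and Gnat3, averaged 3.63 and 3.23 in CD24+ and 3.57 and 3.19 in control CD172a+ cDCs. Their levels hardly differed between the subsets where Cd36 differed by nearly 5 log2 units.

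For the 3 members past the threshold between the control subsets, the genes most alike in pattern were found by Pearson correlation over the 11 arrays, which share groups and array sets, so r is a description. Cd36 was followed by Fnip2, a folliculin partner of nutrient sensing (r = 0.996), Serpinb8, an intracellular protease inhibitor (0.994), and the cDC1 chemokine receptor Xcr1 (0.993). Serpinb8, for example, averaged 8.85 ± 0.22 (SD, n = 3) in CD24+ and 5.33 ± 0.29 (SD, n = 4) in control CD172a+ cDCs. Lrp1 was followed by Tarm1, an activating receptor of myeloid cells (0.984), Stap1, a signalling adaptor (0.974), and Pxdc1 (0.970). Msr1 was followed by the growth factor genes Mdk (0.957) and Vegfa (0.948) and by Ltb4r1, a leukotriene B4 receptor (0.936).

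The other genes of dead cell uptake, 71 listed by role and 69 measured, changed between the subsets in both directions. Between control CD24+ and control CD172a+ cDCs, 6 were higher, 7 lower and 56 did not pass, so 18.8% passed where 6.41% of all genes did. The list was chosen with earlier results of these data known, so this share is a description. The median difference of the list was -0.12, against -0.02 for all genes. Passing genes came from every role. Among 18 other uptake receptors, 1 was higher and 3 lower in CD24+ cDCs. Clec9a, the receptor for actin exposed by dead cells and a defining cDC1 marker, averaged 11.62 against 6.76 (difference 4.86, limma adjusted p = 4.86e-07). Cd300lf, a phosphatidylserine receptor of the CD300 family, fell by 2.61 (adjusted p = 0.00404). The integrin beta-3 chain Itgb3, an alternative partner of alpha-v, fell by 1.13 (adjusted p = 0.000709), and Cd300lb by 0.49 (adjusted p = 0.0182). Cd300lb averaged 4.09 in CD24+ and 4.58 in control CD172a+ cDCs, both below the median of all genes, in the range where differences shrink.

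Among 19 genes of phagosome maturation and digestion, 1 was higher and 3 lower in CD24+ cDCs. Cybb, the membrane subunit of the phagocyte NADPH oxidase, averaged 5.86 ± 0.28 (SD, n = 3) in CD24+ and 9.70 ± 0.65 (SD, n = 4) in control CD172a+ cDCs, a difference of -3.84 (limma adjusted p = 9e-05). The cholesterol exporters of the lysosome went in opposite directions, Npc2, its soluble part, being higher by 1.05 (adjusted p = 0.00923) and Npc1, its membrane part, having dropped by 1.10 (adjusted p = 0.0429). The protease gene Ctsl fell by 0.66. Among 14 engulfment genes, Vav3 (0.89) and Trio (0.61) were higher and Elmo1 (-0.88), which with Dock180 activates Rac, was lower. Of 9 bridging molecules 1 passed, Anxa1, a phosphatidylserine-binding annexin (1.76, adjusted p = 0.0252). Mfge8 (-0.20), Gas6 (-0.15) and Pros1 (-0.23) did not pass. Of 9 genes of the cholesterol and nuclear receptor response, Rxra was higher (0.55).

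**Figure D4:**
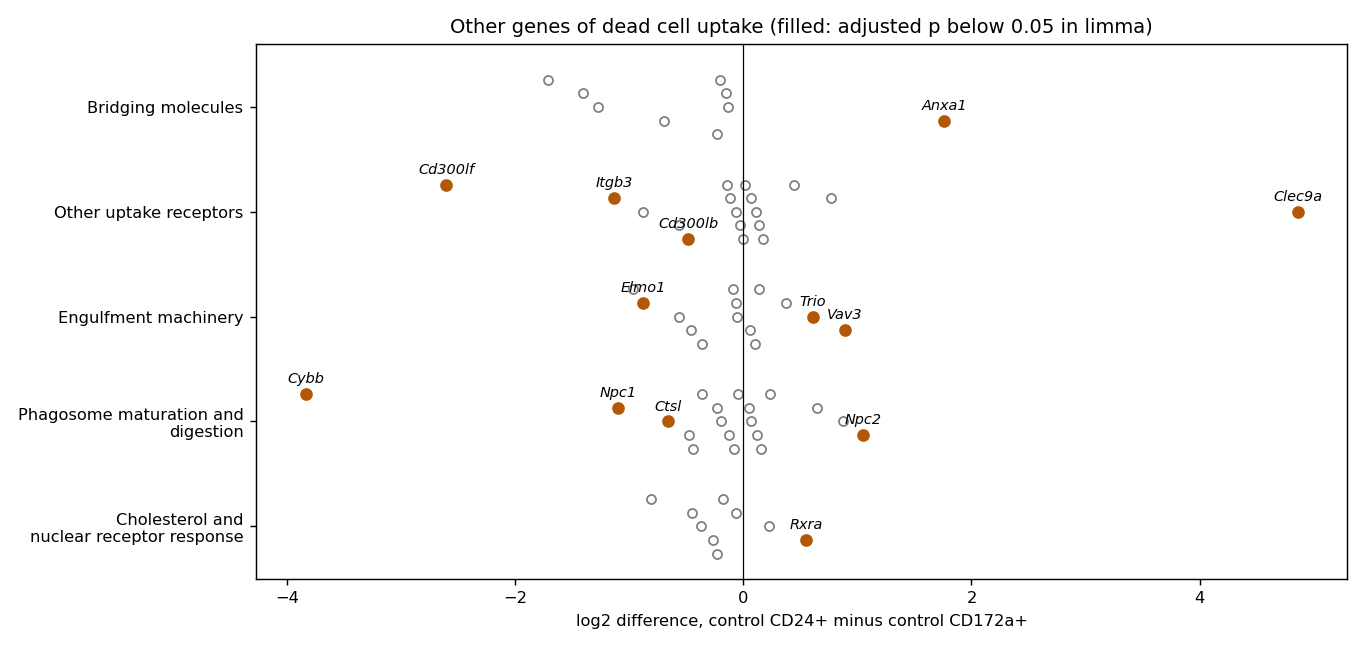
Log2 difference between control CD24+ and control CD172a+ cDCs for 69 other genes of dead cell uptake, by role (vertical offsets within a role only separate points), filled and named where the limma adjusted p was below 0.05. Clec9a lies at 4.86 and Cybb at -3.84, with 6 genes higher and 7 lower in CD24+ cDCs.

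Between CD172a+ cDCs labelled Zeb2-deficient and control, 0 of the 69 passed in limma, and 3 had an unadjusted p under 0.05, where 3.88% of all genes had. The median was -0.05 and 48 of 69 differences were negative, against a median of 0.01 and 9661 of 19938 for all genes. Against CD24+ cDCs the labelled Zeb2-deficient cells had 6 genes higher and 8 lower, 20.3% of the list, where 7.17% of all genes passed (3.25% higher, 3.92% lower). Scarb1, a class B scavenger receptor, passed there (-1.05, limma adjusted p = 0.0378), as did Lipa, the lysosomal acid lipase (-0.83, adjusted p = 0.0293). With the array set as a block, 30 of the 69 passed between the control subsets, 9 higher and 21 lower in CD24+ cDCs, where 15.4% of all genes passed. Nr1h3, the liver X receptor alpha, chosen after its values were seen, was higher in the second set by 0.84 in control CD172a+ and 0.74 in labelled Zeb2-deficient cDCs, and by -0.08 in CD24+ cDCs.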

How the data were processed

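Sorted splenic cDCs yielded RNA through an RNAqueous-Micro kit, and array targets came from the Ovation PicoSL kit, per the labels' protocols. The authors deposited a log2 value for each probe set. RMA is the tool that the submitters' processing notes name. Software version, filters and genome build are not given in the sources used here. Array medians lay between 5.454 and 5.521, and precision is limited by how few arrays there are. No pair of arrays shared more than 5.2% of values.

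Of 30177 probe sets, 21789 carried 1 gene symbol in the platform annotation. Each of 19938 genes was represented by whichever of its probe sets had the highest mean. The comparisons used limma 3.58.1 (R 4.3.3), in 1 fit over 11 arrays with group as the only factor (8 residual degrees of freedom). The fit was also run on simulated data with independent noise. Those data held no array sets, so the run cannot show how the fit behaves with them. Figures were drawn with matplotlib 3.10.9. Alternatives covered the samples fitted, array set and replicate blocks, probe set choice, scaling, a low-value filter, the variance prior and single arrays left out.

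The members and lists were chosen with earlier results of these data known. Named were all members, up to 4 passing genes with the largest change per role, and the 3 nearest patterns of each member that passed between control subsets. Marker lists also covered monocytes, B cells, pDCs, pan-cDC, erythroid and platelet genes. Deviations of same-numbered arrays correlated at 0.442 to 0.68 in the 4 pairs of CD172a+ groups. This comes from the data and not the labels, and differently numbered arrays of one array set correlated about as highly (0.496 to 0.699), so the numbers do not stand out from the array sets. Same-numbered arrays correlated at -0.445 to 0.506 between the control subsets, which were not taken as paired.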

Additional observations from a re-analysis of the deposited data

Results flagged for a closer look

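Each of the 10 members was searched in both CD172a+ groups of 4 arrays for a single array far from the other 3. Chance alone marks about 1 in 20 such groups. Havcr2 in CD172a+ cDCs labelled Zeb2-deficient had its lowest array at 10.22, against 10.61 to 10.63 on the other 3. Tyro3 in the same group had its highest array at 4.96, with the other 3 arrays at the identical value of 4.90, so the gap to them spans the whole range and the distance is 0.06 of a log2 unit.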

How the results depend on the processing

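Counts stayed within 1.5 times the main count in 120 of 126 alternatives. Between the CD172a+ groups the main counts were 0, where 0.0502% of all genes passed, so the alternatives for that comparison could hardly move. With the array set as a block, 30 of the 69 other uptake genes passed between the control subsets (13 in the main fit). Between labelled Zeb2-deficient and CD24+ cDCs 27 passed (14 in the main fit), as did 4 members. The shares of all genes rose too, from 6.41% to 15.4% and from 7.17% to 18.3%. With the replicate number as a block, 21 of the 69 passed between the control subsets, where 9.24% of all genes did. This replicate block changed the call of no member, and 0 members passed between the CD172a+ groups. Within the second array set, 6 members passed between the control subsets (8.79% of all genes). Between labelled Zeb2-deficient and CD24+ cDCs 4 passed there (9.71% of all genes). Fewer arrays were used there, and other causes were not tested. With single arrays left out, member counts were 0, 2 to 3 and 2 in the 3 comparisons, and those of the 69 genes 0, 9 to 13 and 11 to 16.

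No member past the threshold turned its sign. Differences of members that did not pass turned as follows. Within the first set Axl was 0.30, Itgb5 0.31, Mertk 0.22, Timd4 -0.30 and Tyro3 0.26 between the control subsets, Axl 0.12 and Cd36 0.06 between the CD172a+ groups, and Axl -0.18, Itgb5 -0.17, Timd4 0.67 and Tyro3 -0.12 between labelled Zeb2-deficient and CD24+ cDCs. Within the second set Itgb5 was -0.10, Mertk -0.18 and Tyro3 -0.02 between the CD172a+ groups. Quantile normalisation applied again gave Itgb5 -0.02 there, Tyro3 0.03 between the control subsets, and Itgav 0.04 and Tyro3 -0.01 in the third comparison. Tyro3 was 0.02 with arrays centred on their medians and 0.00 with the replicate block between the control subsets.

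With single arrays left out, differences between the CD172a+ groups ran from -0.18 to 0.14 for Cd36, 0.00 to 0.48 for Timd4, -0.29 to 0.16 for Axl, -0.20 to 0.46 for Mertk, -0.01 to 0.10 for Tyro3, -0.01 to 0.13 for Itgav and -0.20 to 0.20 for Itgb5. Between the control subsets they ran from -0.09 to 0.06 for Tyro3 and -0.40 to 0.01 for Itgb5, and in the third comparison from -0.95 to 0.23 for Timd4 and -0.16 to 0.08 for Itgav. The low-value filter left 5 members, so the others have no value under it.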
